A study of Arabidopsis thaliana with 8 samples.

Results

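GID1A, GID1B and GID1C are the gibberellin receptors of Arabidopsis thaliana, and their transcripts were followed in germinating seedlings with and without abscisic acid (ABA). Members were the probe sets that the platform annotation assigns to 1 of these genes and to no other gene: 3 probe sets of 22246, which are 259302_at for GID1A (AT3G05120), 251200_at for GID1B (AT3G63010) and 246782_at for GID1C (AT5G27320). Each receptor thus had 1 probe set. Whether the probes of a set also bind the transcript of another receptor was not tested.

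Gibberellin is the hormone that drives germination, and ABA opposes it. A GID1 protein that holds gibberellin binds a DELLA protein, a repressor of growth in the nucleus, and the F-box protein SLY1 then marks the DELLA protein for breakdown. Mutants that lack all of the GID1 genes are extreme dwarfs that do not germinate unaided. Transcripts of GID1A and GID1B are known to fall when gibberellin is supplied and to be raised by DELLA proteins, a feedback on the pathway.

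The 8 samples formed 4 groups of 2 arrays: Columbia wild type without ABA, wild type on 0.5 uM ABA, and the ahg1-1 and ahg3-1 mutants on 0.5 uM ABA. Both mutants are labelled ABA hypersensitive, each is represented by 1 allele, and their mutations lie in separate genes for PP2C phosphatases, a class that restrains ABA signalling. No mutant was grown without ABA here. Seeds of every group were stratified at 4 °C for 4 days and then kept for 2 days at 23 °C, with 16 h of light and 8 h of dark a day, on MS medium with 2% sucrose. Total RNA from whole seedlings was measured, and values are log2 expression made by RMA, 1 per probe set and array. In such bulk samples, fewer cells of a type and less RNA per cell cannot be told apart. Separate cultures are not named in the labels for the arrays of a group, so p-values reflect only a spread between arrays that could be technical.

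Array medians lay between 5.91 and 5.97. Wild type on ABA replicate 1 stood apart in photosystem markers: 5 probe sets of photosystem and antenna genes (PSBY, PSBW and the LHCB4 genes) averaged 9.82 on it and 7.21 on replicate 2, against 11.77 and 11.05 without ABA and 6.63 to 7.79 on the mutant arrays. The 2 measured root hair genes, EXPA7 and EXPA18, averaged 8.42 on it and 5.48 on replicate 2, 7.55 and 5.38 in ahg1-1, 6.28 and 5.23 in ahg3-1, and 7.64 and 7.66 without ABA. They were thus higher on the number 1 array in each group on ABA. The 5 probe sets of late embryogenesis abundant genes were taken as seed markers by that name alone. LEA4-5, AtLEA4-1 and LEA18 rose with ABA in wild type by limma, where 1.37% of all probe sets passed in either direction. AT2G46140 and AT2G44060, which averaged 8.14 and 9.99 without ABA, differed by 0.66 and -0.21 and did not pass. The median difference of all 5, 5.66, was that of LEA4-5. The seed coat gene BAN lay between 5.33 and 6.29 on all arrays. ABA delays germination, so here seedling stage and direct action of the hormone cannot be told apart.

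GID1A had higher mean values in the 3 groups on ABA than without it. Without ABA its log2 level was 6.92 on replicate 1 and 5.94 on replicate 2. In wild type on ABA it was 7.54 and 6.47, in ahg1-1 7.35 and 6.64, and in ahg3-1 7.22 and 6.76. The number 1 array was higher in every group, and the groups overlapped.

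GID1B, whose protein can bind DELLA proteins to some degree without gibberellin, had its lowest group means in the mutants. Without ABA its log2 level was 6.27 on replicate 1 and 5.47 on replicate 2. In wild type on ABA it was 6.25 and 4.78, in ahg1-1 5.21 and 4.50, and in ahg3-1 4.92 and 4.57. All 4 mutant arrays lay below both arrays without ABA, an order shared by 15.9% of all probe sets. They overlapped with wild type on ABA, whose 2 arrays lay far apart.

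GID1C, which acts beside GID1A in germination, was nearly level across the groups, with slightly higher means on ABA. Its log2 level was 5.79 and 4.89 without ABA and 6.11 and 4.91 in wild type on ABA (replicates 1 and 2). It was 5.78 and 5.07 in ahg1-1, and 5.53 and 5.19 in ahg3-1. The group means ran only from 5.34 to 5.51, below the median of all values, 5.94.

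**Figure D1:**
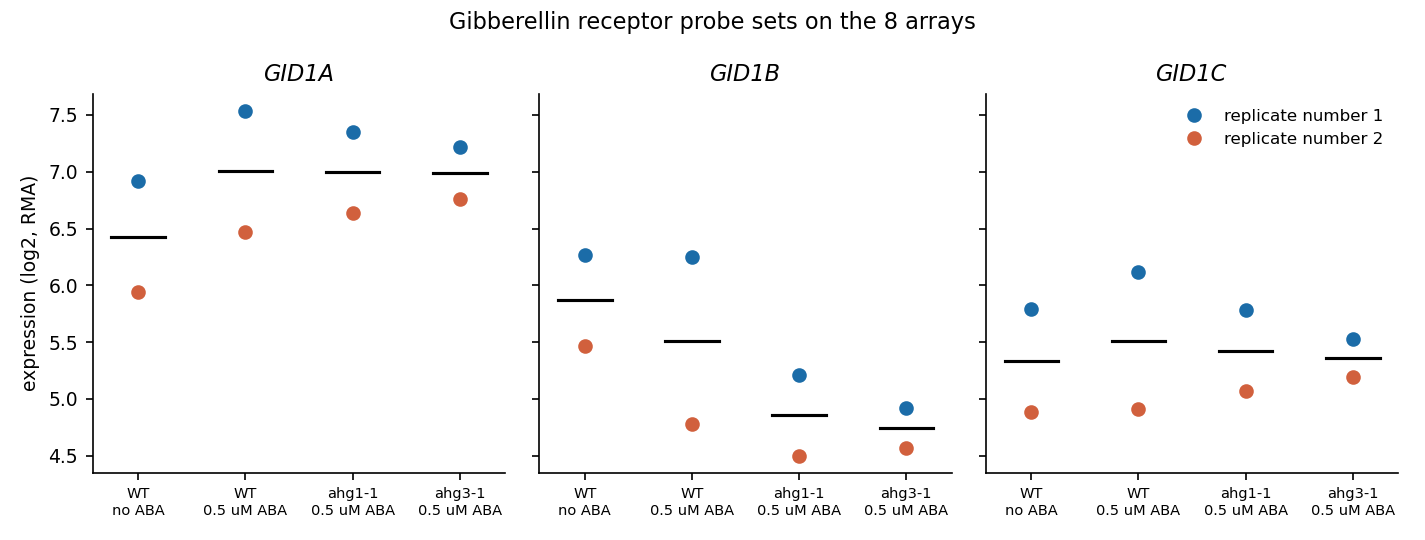
Log2 expression (RMA) of the 3 gibberellin receptor probe sets on each of the 8 arrays, by group, with replicate numbers 1 and 2 in different colours and a bar at the group mean (n = 2). The number 1 point is the higher one in every group. The group means of GID1B are lowest in the mutants, whose arrays lie at 4.50 to 5.21. Wild type on ABA replicate 2 lies within that range, at 4.78.

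Part of this spread was common to the 3 receptors. The number 1 array was above the number 2 array in 12 of 12 pairs of receptor and group, by 0.33 to 1.47. Such a direction, higher on number 1 in all 4 groups, was found in 29.7% of all probe sets, and the opposite one in 26.0%. The pooled SD within groups was 0.59 for GID1A, 0.66 for GID1B and 0.60 for GID1C, so that changes of single receptors had standard errors of 0.49 to 0.53.

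The comparison of wild type with and without ABA asked how the hormone affects the receptors' transcripts, and none of the 3 passed. GID1A averaged 6.43 ± 0.69 without ABA and 7.002 ± 0.76 with it (SD, n = 2), a log2 difference of 0.57 ± 0.49 (SE; 95% interval -0.59 to 1.74; limma, adjusted p = 0.82). GID1B averaged 5.87 ± 0.57 and 5.51 ± 1.04 in the same order, a difference of -0.36 ± 0.53 (-1.64 to 0.92; limma, adjusted p = 0.94). GID1C averaged 5.34 ± 0.64 and 5.51 ± 0.85, a difference of 0.17 ± 0.50 (-1.01 to 1.36; limma, adjusted p = 0.98). These intervals come from a fit without the replicate number, and their width depends on that choice. They leave room for a change of 2-fold or more upward for GID1A, downward for GID1B and in either direction for GID1C. Of all probe sets 1.37% passed, so 0 of 3 is near the background. The arrays of the groups did not separate for any receptor, where they did for 32.7% of probe sets.

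Between arrays of the same number, GID1A was higher with ABA by 0.62 and 0.53. GID1B differed by -0.02 and -0.69, and GID1C by 0.33 and 0.02. No test applies to such single pairs. The values of all 3 depended on single arrays. Without wild type on ABA replicate 1 the differences were 0.04 for GID1A, -1.09 for GID1B and -0.43 for GID1C, and without replicate 2 they were 1.11, 0.38 and 0.78. Without the first array of wild type on no ABA GID1B stood at 0.04, and without the second GID1C stood at -0.28.

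On the same ABA medium, ahg1-1 and ahg3-1 were each compared with wild type. These comparisons share the wild-type arrays on ABA. GID1B averaged 4.86 ± 0.50 in ahg1-1 and 4.74 ± 0.25 in ahg3-1 (SD, n = 2), against 5.51 ± 1.04 in wild type. The differences were -0.65 ± 0.53 (SE; 95% interval -1.93 to 0.62) and -0.77 ± 0.53 (-2.05 to 0.51), both with a limma adjusted p of 1. In size they exceeded the differences of 95.9% and 98.4% of all probe sets, a rank that leaves the spread out. The standard error of GID1B was above the median over all probe sets, 0.28. GID1B was lower than in wild type on ABA on each of the 4 mutant arrays when set against the array of the same number, as were 14.2% of all probe sets. The differences in numbers 1 and 2 were -1.03 and -0.27 for ahg1-1, and -1.33 and -0.21 for ahg3-1.

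The size of the GID1B difference depended on the wild-type arrays on ABA, of which replicate 1 had the higher photosystem and root hair values. Without replicate 1 GID1B differed by 0.08 in ahg1-1 and by -0.03 in ahg3-1, and without replicate 2 by -1.39 and -1.50. Each of these sets a wild-type array of 1 number against mutant arrays of both numbers, so the values include the shift between numbers. Within number 2 alone GID1B was lower by the -0.27 and -0.21 given above. The part of seedling stage in the GID1B values was not tested.

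GID1A and GID1C lay close to wild type in the mutants. GID1A differed by -0.01 ± 0.49 in both, averaging 6.99 ± 0.50 in ahg1-1 and 6.99 ± 0.32 in ahg3-1 (n = 2). GID1C differed by -0.09 ± 0.50 in ahg1-1 and by -0.15 ± 0.50 in ahg3-1. Their 95% intervals were wide, from -1.18 to 1.16 for GID1A and from -1.33 to 1.10 for GID1C over both mutants. Without wild type on ABA replicate 1 the GID1A differences became 0.53 and 0.52, and those of GID1C 0.52 and 0.45. In these contrasts 0% of all probe sets passed by limma, with 326 for ahg1-1 and 18 for ahg3-1 below an unadjusted p of 0.05, so the absence of a call says little about the receptors. The arrays of mutant and wild type separated for 0 of 3 receptors, against 19.6% of probe sets for ahg1-1 and 15.6% for ahg3-1.

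Set against each other, the mutants had similar receptor levels. The difference of ahg1-1 minus ahg3-1 was 0.01 ± 0.49 for GID1A, 0.11 ± 0.53 for GID1B and 0.06 ± 0.50 for GID1C (SE, n = 2 a group; limma, adjusted p of 1 each). The 95% intervals together ran from -1.16 to 1.39. Each of the 3 was positive in number 1 (0.13, 0.29 and 0.26) and negative in number 2 (-0.12, -0.06 and -0.13). In this contrast 0% of probe sets passed by limma and 92 lay below an unadjusted p of 0.05. Groups separated for 0 of 3 receptors, against 18.5% of probe sets.

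**Figure D2:**
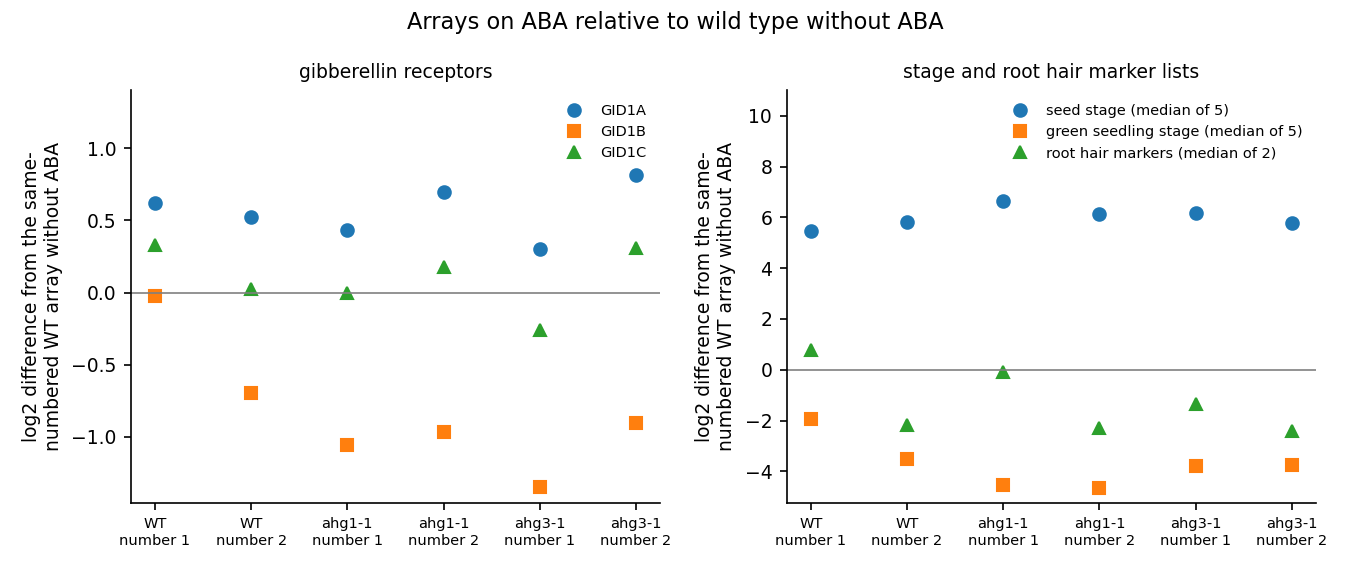
Log2 difference of each array on ABA from the wild-type array without ABA of the same replicate number, for the 3 receptors (left) and as the median of the seed stage, green seedling stage and root hair marker lists (right). All points of a number share 1 control array. GID1B is at -0.02 on the wild-type array number 1 and between -1.35 and -0.69 on the other 5. GID1A is above 0 on all 6, and the share of probe sets that do the same was not counted. The change of GID1A with ABA in wild type did not pass.

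The balance among the receptors was followed through differences between their log2 values within each array, in which the shift common to all 3 cancels. The absolute size of such a difference depends on the probes and has no meaning, so only its change between groups is read. The pooled SD within groups was 0.16 for GID1B minus GID1A, 0.07 for GID1C minus GID1A and 0.10 for GID1B minus GID1C, against 0.59 to 0.66 for the single receptors.

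GID1B minus GID1A was -0.65 and -0.47 on the arrays without ABA and -1.29 and -1.69 in wild type on ABA (replicates 1 and 2). It was -2.135 and -2.138 in ahg1-1, and -2.30 and -2.19 in ahg3-1. GID1B was thus lower relative to GID1A in wild type with ABA than without it, and lower still in both mutants. The groups did not overlap in any of the 4 comparisons. Over all other probe sets, the difference from GID1A separated the ABA groups in 23.3% and ahg1-1 from wild type in 6.33%. It separated ahg3-1 from wild type in 6.52% and the mutants in 7.65%. In means, GID1B minus GID1A moved by -0.93 with ABA in wild type (a ratio 1.91-fold lower). It moved by a further -0.65 in ahg1-1 and -0.75 in ahg3-1 (1.56-fold and 1.69-fold lower), while the mutants differed from each other by 0.11. With ABA, the single changes behind the move were 0.57 for GID1A and -0.36 for GID1B. In ahg1-1 and ahg3-1 they were -0.01 and -0.01 for GID1A, and -0.65 and -0.77 for GID1B. None of these single changes passed.

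GID1B minus GID1C gave the same order of groups. It was 0.48 and 0.58 without ABA, 0.13 and -0.13 in wild type on ABA, -0.57 and -0.56 in ahg1-1, and -0.61 and -0.63 in ahg3-1. The mean moved by -0.53 with ABA, and by -0.57 in ahg1-1 and -0.62 in ahg3-1 relative to wild type on ABA. Again the groups did not overlap in any of the 4 comparisons. Over all other probe sets, the difference from GID1C separated the ABA groups in 11.7% and ahg1-1 from wild type in 4.80%. It separated ahg3-1 from wild type in 3.19% and the mutants in 7.78%.

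GID1C minus GID1A moved less. It was -1.13 and -1.05 without ABA, -1.42 and -1.56 in wild type on ABA, -1.56 and -1.57 in ahg1-1, and -1.69 and -1.56 in ahg3-1. The mean moved by -0.40 with ABA and by -0.08 and -0.14 in the mutants relative to wild type on ABA. The groups did not overlap with ABA or between each mutant and wild type, and they overlapped between the mutants. The shares over all other probe sets were those given above for the difference from GID1A. Between mutants and wild type the margin was very small. Wild type on ABA replicate 2 stood at -1.5589, ahg1-1 replicate 1 at -1.5643 and ahg3-1 replicate 2 at -1.5645.

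**Figure D3:**
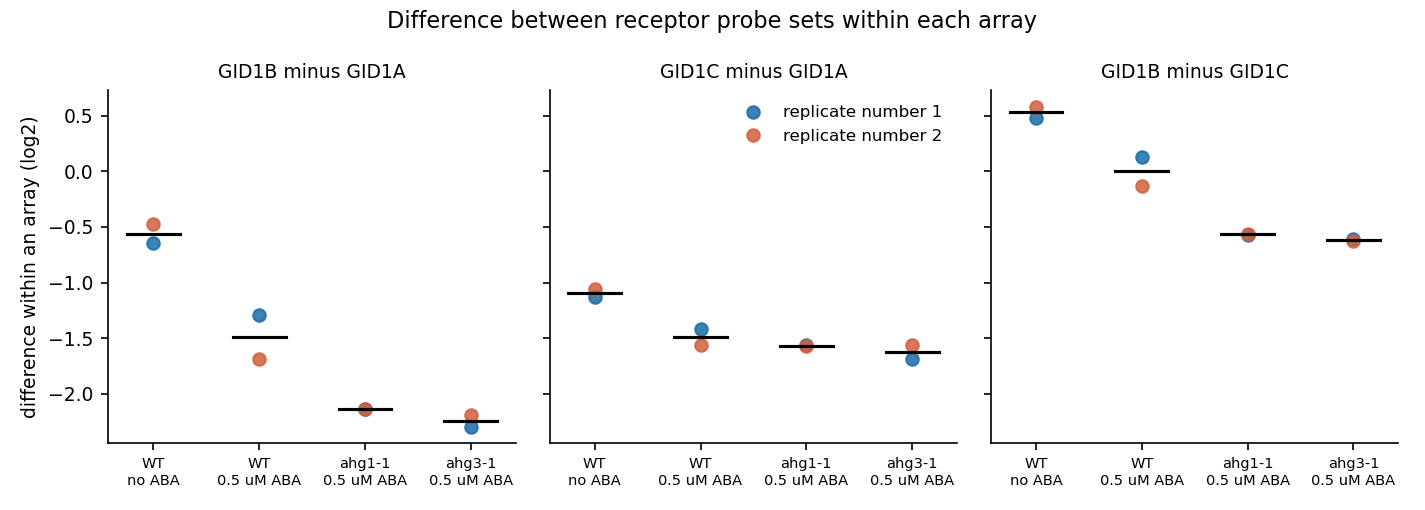
Difference between the log2 values of 2 receptor probe sets within each array, by group, with points for replicate numbers 1 and 2 and a bar at the mean (n = 2). GID1B minus GID1A runs from a mean of -0.56 without ABA to -2.24 in ahg3-1, and GID1B minus GID1C from 0.53 to -0.62.

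Whether these differences varied among the 4 groups was tested by an exact permutation test over the 8 arrays, chosen after the values were seen. For GID1B minus GID1A and for GID1B minus GID1C the exact p was 0.00952, the smallest that 2520 arrangements allow, or 0.0143 adjusted over the 3 pairs. For GID1C minus GID1A it was 0.0381, also when adjusted. The 3 pairs are not independent: each is fixed by the others, and both smallest p-values of this permutation test use the same GID1B values. Such results are not confined to receptors. The difference from GID1A reached a p below 0.05 in 4.45% of all other probe sets and the smallest p in 1.21%, and the difference from GID1C did so in 2.66% and 0.733%. For the levels of single receptors the exact p was 0.73 for GID1A, 0.32 for GID1B and 0.98 for GID1C, with 6.94% of all probe sets below 0.05 and 1.76% at the smallest p.

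Single comparisons could not be settled by exact tests. With 2 arrays against 2 an exact two-sided permutation test cannot go below 0.333, and 11 of the 12 comparisons (3 pairs by 4 contrasts) gave that value, with GID1C minus GID1A between the mutants at 0.667. Adjusted over the 12 these became 0.364 and 0.667. Limma on the difference of every probe set from GID1A gave GID1B a change of -0.93 ± 0.50 with ABA (SE; adjusted p = 0.80), a call that 0.836% of probe sets reached. That fit takes its spread largely from all probe sets rather than from this pair. None of the 12 changes passed without the replicate number in the model, the 4 of GID1B minus GID1C being taken from a like fit of differences from GID1C. The background of separation is also high: the difference from GID1A separated the ABA groups in 23.3% of probe sets, ahg1-1 from wild type in 6.33%, ahg3-1 from wild type in 6.52% and the mutants in 7.65%. The difference from GID1C did so in 11.7%, 4.80%, 3.19% and 7.78%. GID1B was lower relative to both of the other receptors within each replicate number, a direction already fixed by the lack of overlap. For GID1B minus GID1A the values with ABA were -0.64 and -1.22, those for ahg1-1 -0.85 and -0.45, and those for ahg3-1 -1.01 and -0.50. For GID1B minus GID1C they were -0.35 and -0.71, -0.70 and -0.43, and -0.74 and -0.50. Without wild type on ABA replicate 1, GID1B minus GID1A changed by -1.13 with ABA, -0.44 in ahg1-1 and -0.55 in ahg3-1.

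Of 79 other genes listed for gibberellin synthesis, inactivation, transport, DELLA function and the receptors' enzyme relatives, 62 had a matching locus and symbol. Only these were looked up, and 12 had a probe set named here. Of those looked up, the DELLA repressors, the enzymes of gibberellin synthesis and inactivation and the GASA family had 0 named probe sets. These groups were not analysed here. Only 7 of 14 GASA genes and 7 of 17 enzyme relatives could be looked up. None of the 12 passed in any of the 4 contrasts, so their values are given as measured.

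Downstream of the receptors, 4 genes act on the DELLA proteins. SLY1 and its relative SNE encode F-box proteins that mark DELLA proteins for breakdown, and SPY and SEC encode enzymes that attach sugars to them. With ABA they differed by 0.15 (SLY1), 0.42 (SNE), 0.41 (SPY) and -0.23 (SEC), a median of 0.28 against 0.05 over all probe sets. SPY stood at 7.57 and 7.37 without ABA and at 7.67 and 8.09 with it, the 1 gene of the 4 whose groups did not overlap (0.41 ± 0.24, SE; limma, adjusted p = 0.63), where 32.7% of all probe sets did not. In the mutants their medians were 0.05 for ahg1-1 and 0.04 for ahg3-1, with 0.01 and 0.00 over all probe sets, and members between -0.11 and 0.23.

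The measured transport genes were NPF3.1, SWEET13 and SWEET14, whose proteins can carry gibberellin. Their mean differences with ABA were -0.45, -0.04 and -0.42, none of which passed. In numbers 1 and 2 NPF3.1 differed by -0.99 and 0.09, SWEET13 by 0.25 and -0.32, and SWEET14 by -0.34 and -0.51. The median of -0.42 came to -0.04 without the first and -0.81 without the second array of wild type on no ABA, and to 0.05 without wild type on ABA replicate 2. For SWEET14 the log2 level was 6.54 and 5.77 without ABA and 6.20 and 5.26 in wild type on ABA. It was 5.48 and 5.23 in ahg1-1, and 5.42 and 5.10 in ahg3-1. The order of its group means was like that of GID1B, and SWEET13 had the same order (5.31, 5.27, 5.07 and 4.89). The share of all probe sets with this order was not counted. The difference of SWEET14 from wild type on ABA was -0.37 ± 0.39 in ahg1-1 and -0.47 ± 0.39 in ahg3-1 (SE, n = 2; limma, adjusted p of 1 for each).

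XERICO, a small RING protein gene that DELLA proteins raise, differed by 0.10 with ABA, 0.15 in ahg1-1 and -0.11 in ahg3-1. SPT, a bHLH factor of seed dormancy and germination, differed by 0.18 with ABA, but by 1.08 in number 1 and -0.73 in number 2. Against wild type on ABA it differed by -0.62 ± 0.43 in ahg1-1 and -0.61 ± 0.43 in ahg3-1 (SE), and it stood at 8.10 on wild type on ABA replicate 1 and 7.06 on replicate 2.

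The GID1 proteins are related to carboxylesterases, and 3 such relatives were measured. CXE18 had the largest difference with ABA among the 12 genes: it stood at 6.96 and 7.20 without ABA and at 8.23 and 7.89 with it, a difference of 0.98 ± 0.33 (SE; limma, unadjusted p = 0.0223, adjusted p = 0.26). In the mutants it stood at 8.63 and 7.69 (ahg1-1) and at 8.12 and 7.96 (ahg3-1). CXE16 and CXE20 differed by 0.19 and 0.24 with ABA, and the 3 relatives by -0.06 to 0.22 in the mutants.

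**Figure D4:**
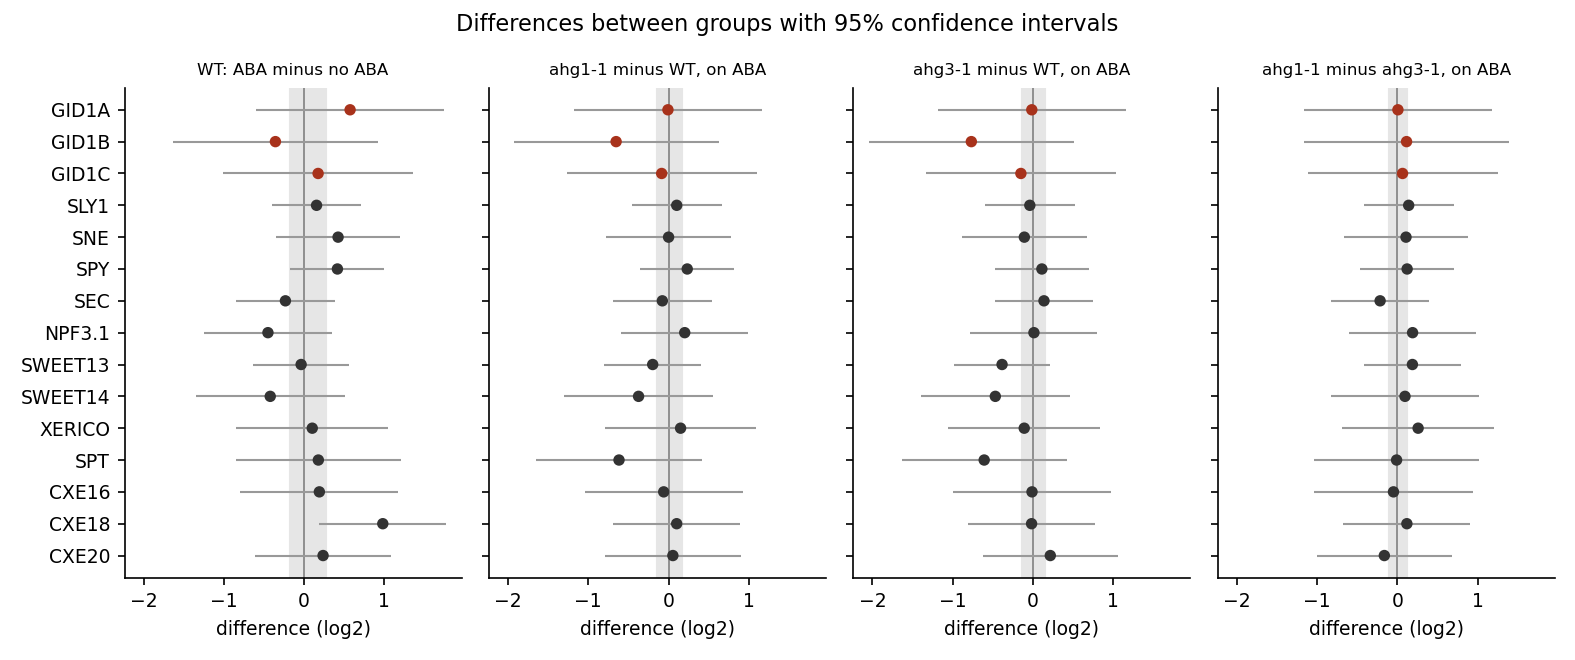
Log2 differences in the 4 comparisons for the 3 receptors (red) and 12 other genes (black), with 95% confidence intervals from limma as lines and the middle 50% of all probe sets as a grey band. Every receptor interval spans 0, and CXE18 with ABA, at 0.98, has the one interval that does not, although its adjusted p is 0.26.

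Among 12998 probe sets with 1 gene in the gene table, those most like each receptor were found by the root mean square difference between centred log2 values over the 8 arrays. For GID1A these were AT3G19680 (0.09), AT1G49850 (0.11) and AT5G66330 (0.13), where the median probe set was at 0.50. For GID1B they were scpl40 (0.12), AT1G25400 (0.15) and AT3G01930 (0.16), against a median of 0.67. For GID1C they were AT3G07080, AT3G17710 and AT1G47400, at 0.11 to 0.12 against 0.46. GID1C ranked 106 in likeness to GID1A, at 0.22, while GID1B ranked 9518 at 0.68. Seen from GID1B, GID1C ranked 1121 (0.47) and GID1A 6641 (0.68). Seen from GID1C, GID1A ranked 247 (0.22) and GID1B 6859 (0.47). The patterns of GID1A and GID1C were thus closer to each other than either was to that of GID1B. These distances include the shift between replicate numbers and carry no test.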

How the data were processed

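Seedling RNA was measured on 8 one-colour arrays, 1 per sample. The deposited values are log2 expression per probe set, made by the authors with RMA per the submitters' processing notes (version not given in the sources used here). RMA equalises the distributions of the arrays, which hides any shift of total RNA. Groups came from sample titles; the free-text descriptions repeat one wording for all samples and were not used. limma 3.58.1 (R 4.3.3) fitted 4 group means to all 22246 probe sets without a filter, with empirical Bayes moderation and Benjamini-Hochberg adjustment over all probe sets; a call is an adjusted p below 0.05. Precision is limited by having 2 arrays a group. Of the probe sets, 13072 had 1 annotated gene, 12998 of them in the TAIR10.1 gene table. Listed genes were kept if that table pairs locus and symbol, which left 62 of 79. All measured list genes are named, the LHCB4 genes as a family, with the 3 most alike probe sets per receptor. Receptors and lists were chosen with earlier results of these data known. Alternatives were the replicate number as a block, cyclic loess, a filter on dim probe sets, only the arrays of a contrast, an intensity trend and leaving out each array. No sequences are shown.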

Additional observations from a re-analysis of the deposited data

How the results depend on the processing

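No receptor passed under any alternative tried. Receptor directions held under cyclic loess. The replicate block, the intensity trend and a fit of only the arrays of a contrast leave the differences between group means unchanged. These fits could therefore not turn a direction. GID1B and GID1C have no value without dim probe sets, since their means lie below the median of 5.94. Leaving out 1 array turned directions. With ABA, GID1A ran from 0.04 to 1.11, GID1B from -1.09 to 0.38 and GID1C from -0.43 to 0.78. For ahg1-1 they ran from -0.54 to 0.53, -1.39 to 0.082 and -0.69 to 0.52. For ahg3-1 they ran from -0.55 to 0.52, -1.50 to -0.03 and -0.75 to 0.45, and between the mutants from -0.35 to 0.36, -0.24 to 0.47 and -0.29 to 0.42. Of the differences within arrays, only GID1C minus GID1A between the mutants turned, from -0.0041 to 0.12. In the other comparisons the groups did not overlap, so leaving out 1 array could not turn the direction. GID1B minus GID1A ran from -1.13 to -0.73 for ABA. The number of called probe sets with ABA was 305, at 33 with only the arrays of the contrast and 51 to 388 without 1 array.

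Same-numbered arrays deviated together from the group means, with r between 0.50 and 0.84 over the 6 pairs of groups, but the labels tie the numbers to no shared culture. With the replicate block 2799 probe sets passed with ABA, 3 for ahg1-1, 0 for ahg3-1 and 1 between the mutants. The lowest adjusted p of a receptor was then 0.094 (GID1A with ABA). Standard errors under the block were 0.19 for GID1A, 0.25 for GID1B and 0.21 for GID1C. Without it they were 0.49, 0.53 and 0.50, so intervals of single receptors were wider without the block. Limma on differences from GID1A with the block gave GID1B minus GID1A a change of -0.93 ± 0.32 with ABA (adjusted p = 0.019), where 23.8% of probe sets passed. No other receptor call changed under the block.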
